A study of Homo sapiens with 6 samples.

Results

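The transcripts described here are 10 genes of the NOTCH pathway, the receptors NOTCH1, NOTCH2 and NOTCH3, the ligands JAG1, JAG2, DLL1 and DLL4, and the targets HES1, HEY1 and NRARP, chosen by name from the 63140 genes of the deposited counts table. They were compared between NOZ-R, a gallbladder cancer line made resistant to gemcitabine by raising the dose in steps, and NOZ, the parental human gallbladder cancer line, with 3 libraries of poly-A RNA in each. Gemcitabine is a nucleoside analogue that stops DNA synthesis. The labels give neither the doses, nor whether NOZ-R is a single clone, nor whether the drug was present when RNA was taken. They also do not say whether replicates came from different cultures; a p-value here therefore speaks of library-to-library spread alone, and that spread could be technical.

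NOTCH receptors are single-pass membrane proteins that are activated by Jagged or Delta-like ligands on a neighbouring cell. Ligand pulling exposes the receptor to an ADAM protease and then to gamma-secretase, which frees the intracellular domain. That domain enters the nucleus, binds the DNA-binding protein RBPJ with a Mastermind coactivator, and turns on targets such as the HES and HEY repressors and NRARP, a small ankyrin-repeat protein that limits the pathway by binding the active complex. In the biliary tree, JAG1 and NOTCH2 are the ligand and receptor whose loss of function causes Alagille syndrome, with too few bile ducts.

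Total counts lay between 14136037 and 19244923 per library, with similar ranges in both lines. CPM, counts scaled to library size, are used to compare a gene between lines, and FPKM, the deposited values per kilobase, to compare genes with each other. Keratins of simple epithelium were abundant, and of 9 tested epithelial markers 4 were called higher in NOZ-R and 3 lower. KRT7 measured 823.7 CPM ± 20.8 in NOZ-R and 389.8 CPM ± 30.4 in NOZ, and KRT19, which was not called, 891.0 CPM ± 9.05 in NOZ-R and 926.9 CPM ± 117.0 in NOZ (SD, n = 3 each). The log2 fold changes of KRT18, KRT8 and MUC1 were 0.64, 0.25 and 1.34, and those of EPCAM and CLDN4 -0.56 and -0.92. CDH1, which encodes E-cadherin, was called lower and had at most 7 counts in a NOZ-R library and at most 26 in a NOZ library. KRT8 and KRT18 overlap each other on opposite strands, and KRT7, MUC1 and CDH1 overlap other annotated genes, so their counts are uncertain.

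Markers of other cell types were low but not constant. The summed level of 8 endothelial markers was 15.6 to 17.4 CPM in NOZ-R and 5.71 to 7.54 CPM in NOZ, mostly from PECAM1 and TIE1, which were called higher, with TEK at 3 counts over the NOZ-R libraries and 19 over the NOZ libraries and VWF, KDR, ERG and EMCN at 2 counts or fewer in every library. The 10 fibroblast and mural markers summed to 11.8 to 13.0 CPM in NOZ-R and 7.92 to 8.14 CPM in NOZ. Of 5 tested, COL3A1 and RGS5 were called higher and ACTA2 lower (log2 fold change -0.46). COL3A1 was at 3.10, with 155 counts over the NOZ-R libraries and 19 over the NOZ libraries. RGS5 measured 2.51 CPM in NOZ-R and 1.23 CPM in NOZ. COL1A1, at -0.54 with 88 counts in NOZ-R and 138 in NOZ, and PDGFRB, at 0.88, were not called. Among those not tested, DCN had 37 counts in NOZ-R and 0 in NOZ, LUM 25 in NOZ-R and 0 in NOZ, and PDGFRA 29 in NOZ-R and 5 in NOZ, while COL1A2 had 3 or fewer and THY1 1 or fewer in any library. The 8 leukocyte markers summed to 5.63 to 6.01 CPM in NOZ-R and 3.38 to 5.99 CPM in NOZ. Of 2 tested, CSF1R was called higher (log2 fold change 1.85, 91 counts over the NOZ-R libraries and 27 over the NOZ libraries) and CD14 was not called. ITGAM had 17 counts in NOZ-R and 2 in NOZ, PTPRC 11 in NOZ-R and 49 in NOZ, and MS4A1 0 throughout. The part that any of these cell type markers play in the results below was not tested.

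The promoters of HES1 and NRARP are shown because these are the targets whose transcripts moved in opposite directions. The sequences are from RefSeq on GRCh38.p14, 5′ to 3′ on the gene's strand, from 250 bases before to 50 after the annotated start, with the core RBPJ motif TGGGAA in capitals where a search of both strands found it. HES1 is at chr3:194135898-194136197 on the plus strand and NRARP at chr9:137302222-137302521 on the minus strand.
HES1: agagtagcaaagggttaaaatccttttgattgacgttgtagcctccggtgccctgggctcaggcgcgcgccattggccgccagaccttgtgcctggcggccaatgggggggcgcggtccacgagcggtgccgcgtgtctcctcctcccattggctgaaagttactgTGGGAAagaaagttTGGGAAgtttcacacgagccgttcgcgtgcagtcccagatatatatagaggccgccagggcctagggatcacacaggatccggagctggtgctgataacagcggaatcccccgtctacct
NRARP: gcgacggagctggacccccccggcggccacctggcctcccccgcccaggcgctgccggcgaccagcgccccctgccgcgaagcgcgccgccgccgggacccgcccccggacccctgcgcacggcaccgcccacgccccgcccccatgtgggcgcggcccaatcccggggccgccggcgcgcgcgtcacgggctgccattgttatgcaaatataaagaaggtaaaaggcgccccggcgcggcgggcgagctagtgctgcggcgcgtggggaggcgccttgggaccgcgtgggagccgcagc

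The HES1 window holds 2 copies of TGGGAA, which begin 84 and 70 bases before the start and both lie on the gene's strand. At least 1 copy is present in 24.0% of the 35116 promoter windows of the same length in that table, and at least 2 copies in 3.80%. No copy was found in the NRARP window or in those of NOTCH1, NOTCH2, NOTCH3, JAG1, JAG2 and DLL4, which says only that these letters are not in these windows. Windows were available for 8 of the 10 members, all but DLL1 and HEY1. The N-box CACNAG, a motif that HES proteins bind, occurs 4 times in the HES1 window, on either strand and without overlap with TGGGAA, and at least 4 copies occur in 0.293% of all windows. It has 1 copy each in the windows of NRARP, NOTCH2, NOTCH3 and DLL4 and 2 in that of NOTCH1, where the copies overlap, against 38.0% of all windows with at least 1. The E-box CACGTG was in none of the 8 windows, against 7.26% of all windows. These matches are descriptions of sequence, not of binding.

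Of the 10 members, 9 had enough counts to be tested. NOTCH2, NOTCH3, JAG1 and HES1 were higher in NOZ-R, NOTCH1 and NRARP were lower, and JAG2, DLL1 and HEY1 did not pass (edgeR's quasi-likelihood test, Benjamini-Hochberg adjustment over all 14386 tested genes, threshold 0.05). The 6 calls among 9 tested members stand against 60.2% of all tested genes called (30.4% higher, 29.8% lower), so the share of members called is near the background and is no result about the list. Libraries of the lines did not overlap in CPM for 7 of the 9, against 65.3% of all tested genes. The median log2 fold change of the 9 was 0.49, against -0.01 over all tested genes. In bulk RNA, a change in the number of cells that express a gene and a change in the RNA per cell cannot be told apart.

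**Figure D1:**
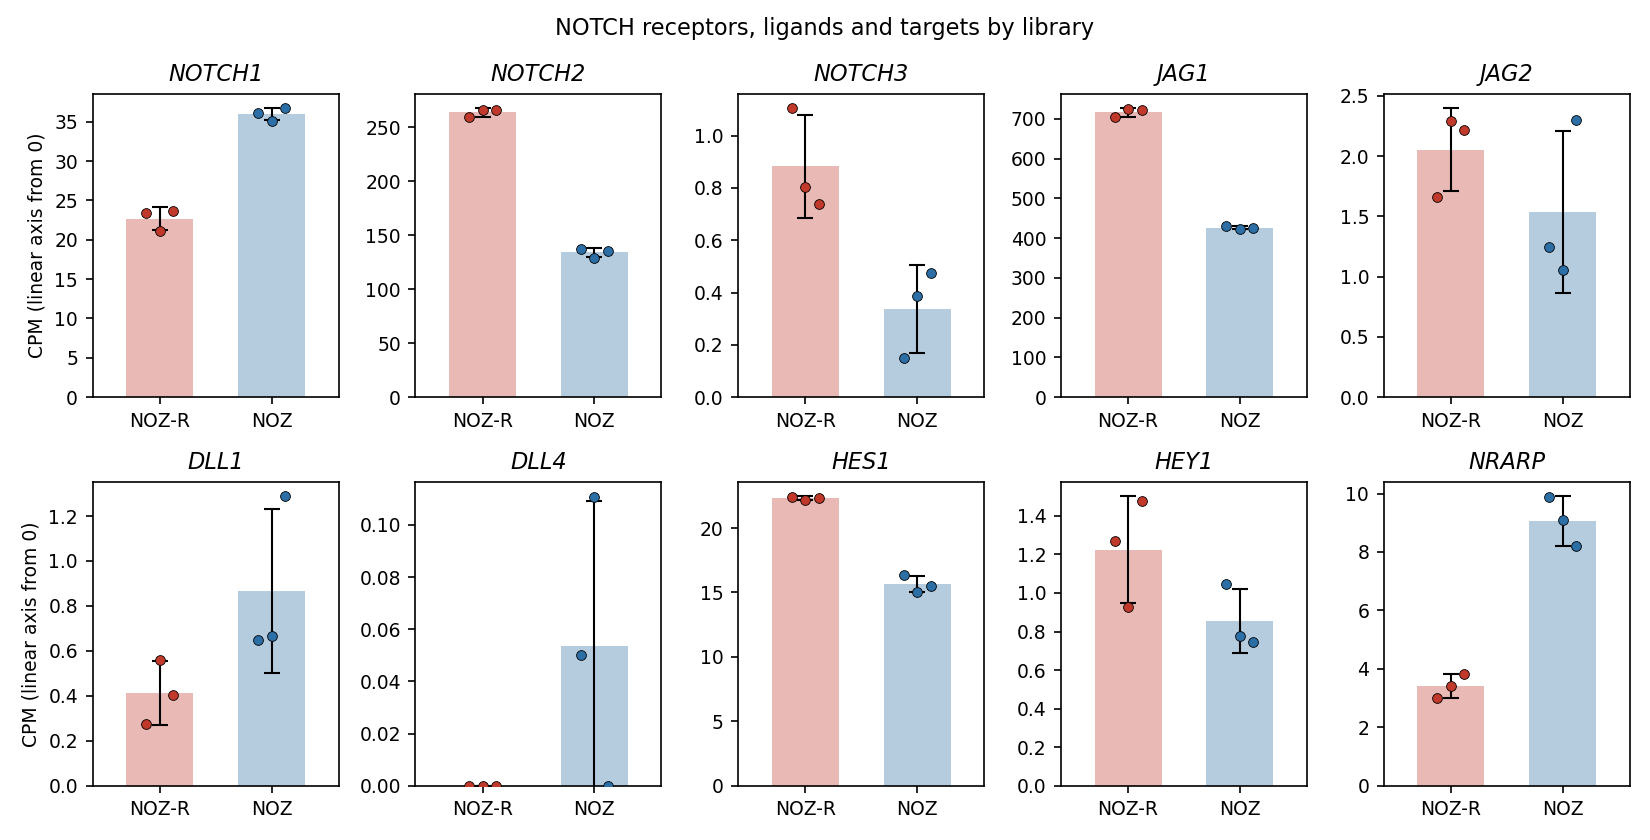
CPM of each member in the 3 NOZ-R and 3 NOZ libraries, 1 panel a gene, on linear axes from 0 with a scale of their own. Points are libraries, bars are means and error bars SD. NOTCH2, JAG1 and HES1 sit higher in every NOZ-R library than in any NOZ library, NOTCH1 and NRARP lower, and JAG2 and HEY1 overlap.

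Among the receptors, NOTCH2 was the most abundant transcript in both lines and rose in NOZ-R, while NOTCH1, which was second, fell. NOTCH2 (chromosome 1, 119911553 to 120069626, minus strand, GRCh38) had 259.3, 266.6 and 266.1 CPM in NOZ-R replicates 1 to 3, against 137.8, 129.2 and 135.7 CPM in NOZ replicates 1 to 3. The lowest NOZ-R library was far above the highest NOZ library. Its log2 fold change was 0.98 ± 0.0537 (SE, adjusted p = 3.66e-09, edgeR), a 1.97-fold higher level.

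NOTCH2 has near-identical human copies of its 5′ exons, the NOTCH2NL genes, so reads from that end cannot be assigned with certainty. The copies had few counts, and the 3 that were tested were called lower. NOTCH2NLA measured 1.18 CPM ± 0.177 in NOZ-R and 2.47 CPM ± 0.487 in NOZ (SD, n = 3 each), which is -1.07 on the log2 scale (adjusted p = 0.00301, edgeR). NOTCH2NLB fell by 0.81 and NOTCH2NLC by 0.57 on the log2 scale, with the call of NOTCH2NLC lost in 11 of 19 other settings, and NOTCH2NLR, with 26 counts over the NOZ-R libraries and 19 over the NOZ libraries, was not tested. With the counts of the 4 copies added to those of NOTCH2, an alternative chosen after seeing the data, the log2 fold change of NOTCH2 was 0.90 (adjusted p = 6.15e-09, edgeR).

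NOTCH1 (chromosome 9, 136494433 to 136545786, minus strand) had 23.4, 21.1 and 23.6 CPM in NOZ-R, against 36.1, 35.1 and 36.7 CPM in NOZ. The lines were separated with little spread inside either. The log2 fold change was -0.66 ± 0.0798 (SE, adjusted p = 8.00e-06, edgeR). NOTCH3 (chromosome 19, 15159038 to 15200981, minus strand) was near the floor of detection, with 20, 13 and 11 counts in NOZ-R and 3, 7 and 7 counts in NOZ. All 3 NOZ-R libraries were above all 3 NOZ libraries, at 1.11, 0.805 and 0.738 CPM against 0.150, 0.388 and 0.474 CPM. Its log2 fold change of 1.44 ± 0.455 (SE, adjusted p = 0.0144, edgeR) corresponds to a ratio of summed counts of 2.78, with a 95% counting interval of 1.56 to 5.196. The NOTCH3 call was lost without NOZ replicate 1 (adjusted p = 0.0784) or without NOZ-R replicate 1 (adjusted p = 0.0740), and over the 18 alternatives that gave a value its adjusted p ran from 0.0138 to 0.497.

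NOTCH4, a receptor known best from endothelium and not among the members, had 6.47, 7.99 and 5.70 CPM in NOZ-R, against 3.99, 4.21 and 3.86 CPM in NOZ (log2 fold change 0.74 ± 0.162, SE, adjusted p = 0.00141, edgeR). The endothelial genes PECAM1 and TIE1 were higher in NOZ-R too, at 9.21 CPM ± 0.571 in NOZ-R and 1.87 CPM ± 0.0686 in NOZ for PECAM1 (SD, n = 3 each), while CDH5 had 7, 11 and 2 counts in NOZ-R and 13, 8 and 8 counts in NOZ. NOTCH4 shares exonic sequence with GPSM3, so its counts are uncertain.

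Per length, the make-up of the receptor transcripts differed between the lines. NOTCH2 took 85.4%, 86.0% and 86.2% of the summed FPKM of the 4 receptors in NOZ-R, against 71.4%, 70.2% and 70.6% in NOZ. NOTCH1 took 9.87% ± 0.685 in NOZ-R and 25.3% ± 0.325 in NOZ (SD, n = 3 each). The share of NOTCH4 was 3.75% ± 0.634 in NOZ-R and 3.64% ± 0.253 in NOZ, a difference smaller than the spread, and that of NOTCH3 stayed under 1% in every library. The ratio of NOTCH2 to NOTCH1 FPKM was 8.28, 9.47 and 8.44 in NOZ-R, against 2.86, 2.75 and 2.77 in NOZ. Such a ratio within a library does not depend on how libraries are scaled, but it shows unequal change and not that either gene was constant.

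**Figure D2:**
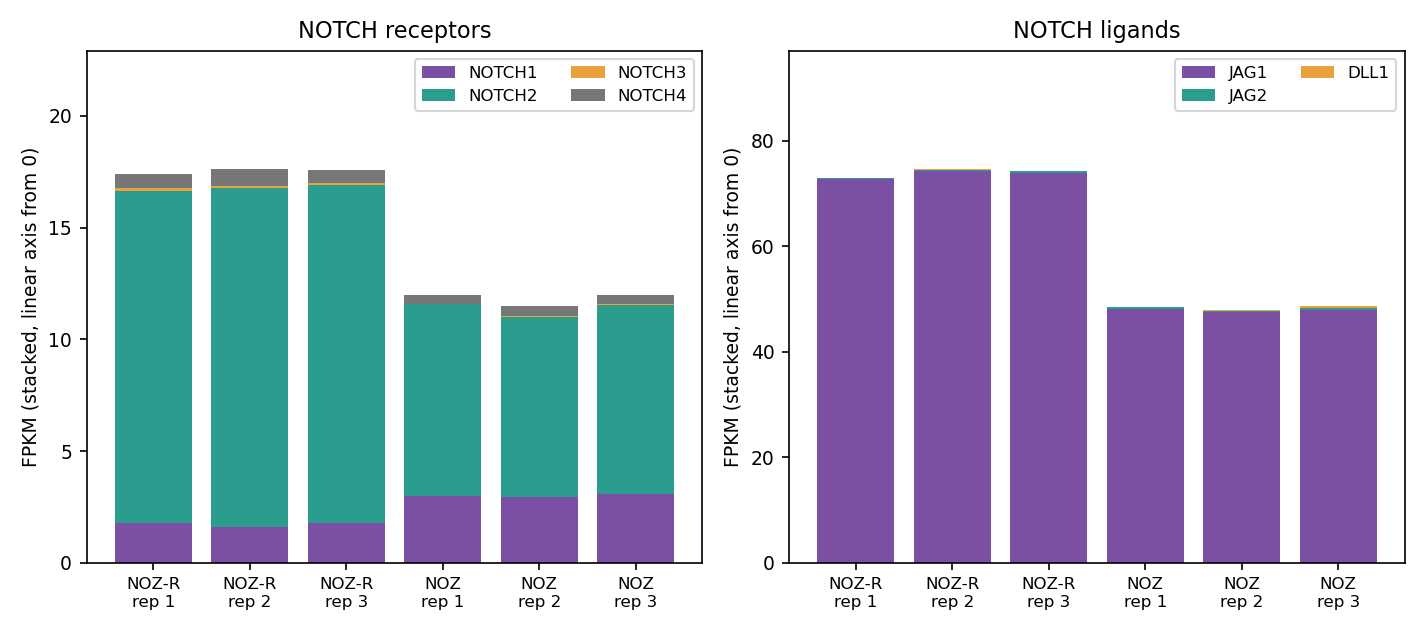
Stacked FPKM of the NOTCH receptors (left) and of the ligands JAG1, JAG2 and DLL1 (right) in each library, on linear axes from 0. NOTCH2 is the largest receptor segment in all 6 libraries, the NOTCH1 segment is thinner in NOZ-R, and JAG1 makes up nearly the whole ligand column in both lines.

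The ligand pool was almost entirely JAG1, and JAG1 rose. JAG1 (chromosome 20, 10637684 to 10673999, minus strand) had 704.3, 724.2 and 721.5 CPM in NOZ-R, against 430.5, 422.4 and 426.2 CPM in NOZ. Replicates differed by a few percent and the lines by much more. The log2 fold change was 0.75 ± 0.0459 (SE, adjusted p = 1.06e-08, edgeR), a 1.68-fold higher level. JAG1 exceeded 98.5% of the tested genes in mean CPM, which is not corrected for gene length. It took 99.4% ± 0.134 of the summed ligand FPKM in NOZ-R and 99.0% ± 0.404 in NOZ (SD, n = 3 each). Its annotated antisense partner had at most 1 count in any library.

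JAG2, the second Jagged ligand (chromosome 14, 105140981 to 105168824, minus strand), had 1.66, 2.29 and 2.21 CPM in NOZ-R, against 1.25, 1.05 and 2.30 CPM in NOZ. The lines overlapped because NOZ replicate 3 was as high as any NOZ-R library. Its log2 fold change of 0.45 did not pass (95% interval -0.22 to 1.11, adjusted p = 0.228, edgeR), and without NOZ replicate 3 it was 0.83 (adjusted p = 0.0350). JAG2 shares exonic sequence with the transcript AL512356.1 on the same strand, so its counts are uncertain. DLL1, a Delta-like ligand (chromosome 6, 170282206 to 170306565, minus strand), had 5, 9 and 6 counts in NOZ-R and 13, 12 and 19 counts in NOZ. Every NOZ-R library was below every NOZ library, at 0.276, 0.558 and 0.402 CPM against 0.649, 0.665 and 1.29 CPM. The log2 fold change of -1.03 ± 0.452 (SE) narrowly missed the threshold (adjusted p = 0.0628, edgeR), and over 18 alternatives its adjusted p ran from 0.0317 to 1. Leaving out NOZ replicate 3 moved the value to -0.67, and leaving out NOZ-R replicate 2 moved it to -1.31, neither with a call.

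DLL4, the Delta-like ligand of sprouting endothelium (chromosome 15, 40929333 to 40939073, plus strand), had 0 counts in all 3 NOZ-R libraries and 1, 2 and 0 counts in NOZ. These are at the floor of 3 counts over a line, so no fold and no test are given. DLL3, a ligand that acts within the cell and is not a member, had 2 counts in 1 NOZ-R library and 0 in the other 5 libraries. A difference in either gene was not detectable at this depth.

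Among the targets, HES1 rose and NRARP fell, while HEY1 did not pass. HES1 (chromosome 3, 194136145 to 194138732, plus strand), a basic helix-loop-helix repressor, had 22.4, 22.2 and 22.3 CPM in NOZ-R, against 16.3, 15.1 and 15.5 CPM in NOZ. The NOZ-R libraries were almost equal and all above NOZ. The log2 fold change was 0.51 ± 0.0857 (SE, adjusted p = 0.000160, edgeR), a 1.43-fold higher level. The promoter of HES1 is the one printed above with 2 TGGGAA motifs.

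NRARP (chromosome 9, 137300482 to 137302251, minus strand) had 2.98, 3.41 and 3.82 CPM in NOZ-R, against 9.89, 9.09 and 8.19 CPM in NOZ. The highest NOZ-R library was under the lowest NOZ library. Its log2 fold change of -1.42 ± 0.152 (SE, adjusted p = 2.65e-06, edgeR) was the one member change that also passed a test against a 2-fold change (adjusted p = 0.0227), which called 8.96% of all tested genes, and no alternative setting removed the call. HEY1 (chromosome 8, 79764010 to 79767863, minus strand), a relative of the HES repressors, had 23, 15 and 22 counts in NOZ-R and 21, 14 and 11 counts in NOZ, or 1.27, 0.929 and 1.48 CPM against 1.05, 0.776 and 0.745 CPM. The lines overlapped, and the log2 fold change was 0.49 with a 95% interval of -0.21 to 1.19 (adjusted p = 0.205, edgeR).

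The ratio of HES1 to NRARP FPKM was 9.64, 8.35 and 7.49 in NOZ-R, against 2.12, 2.13 and 2.43 in NOZ. The lines did not overlap in it. Ordered by mean FPKM, the members in NOZ-R ran from JAG1 at 73.6 through NOTCH2 at 15.1, HES1 at 10.35, NOTCH1 at 1.73, NRARP at 1.23, JAG2 at 0.3065, HEY1 at 0.213, DLL1 at 0.103 and NOTCH3 at 0.0896 to DLL4, listed at 0. In NOZ the order by mean FPKM was JAG1 at 47.9, NOTCH2 at 8.37, HES1 at 7.93, NRARP at 3.58, NOTCH1 at 2.995, JAG2 at 0.250, DLL1 at 0.237, HEY1 at 0.163, NOTCH3 at 0.0374 and DLL4 at 0.0118. The ranges over libraries of JAG2 and HEY1 and of DLL1 and NOTCH3 overlapped in NOZ-R. Those of NOTCH2 and HES1, of JAG2 and DLL1, of DLL1 and HEY1, and of NOTCH3 and DLL4 overlapped in NOZ. These neighbours are therefore not ordered by range. By deposited FPKM compared inside each library, JAG2 was above HEY1 in NOZ-R, and NOTCH2 was above HES1 in NOZ. NOTCH3 was above DLL4 in each NOZ library, with both near the floor. The other pairs changed order between libraries. NOTCH1 was above NRARP in every NOZ-R library and below it in every NOZ library. This order rests on the gene lengths implied by the deposited FPKM, 12531 bases for NOTCH1 and 2641 for NRARP. The NRARP length exceeds the span of its coordinates given above, and a shorter length would raise its FPKM. The place of NRARP relative to NOTCH1 in NOZ-R is therefore uncertain. The length implied for HEY1, 5487 bases, likewise exceeds the span of its coordinates. Its order against JAG2 in both lines, and against DLL1 in NOZ, is therefore uncertain too.

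The members' positions were set beside these changes, because whole chromosomes differed in level between the lines. NOTCH1 and NRARP both lie near the end of the long arm of chromosome 9, with start coordinates 806.0 kb apart. The 553 other tested genes of chromosome 9 had a median log2 fold change of -0.64, and 74.5% of them were called lower in NOZ-R, against 29.8% of all tested genes. Within 5 Mb of NOTCH1, 86 other tested genes had a median of -0.69 and 79.1% were called lower. The log2 fold change of NOTCH1, at -0.66, was therefore within 0.03 of both medians, and 46.3% of the tested genes of chromosome 9 had a lower value.

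NRARP lay below the median of its surroundings. Within 5 Mb of NRARP, 81 other tested genes had a median of -0.68, and NRARP less that median was -0.75. Of the tested genes of chromosome 9, 7.93% had a lower value. Between NOTCH1 and NRARP lie 29 other tested genes, of which 20 were called lower and 1 higher, with a median of -0.60, and none of the 29 was below NRARP. Toward the chromosome end, the nearest tested genes by start were EXD3 at -1.28, NOXA1 at -1.655 and NSMF at -0.59. NRARP was thus not below all of its nearest neighbours. Why the level of chromosome 9 genes differed was not tested.

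**Figure D3:**
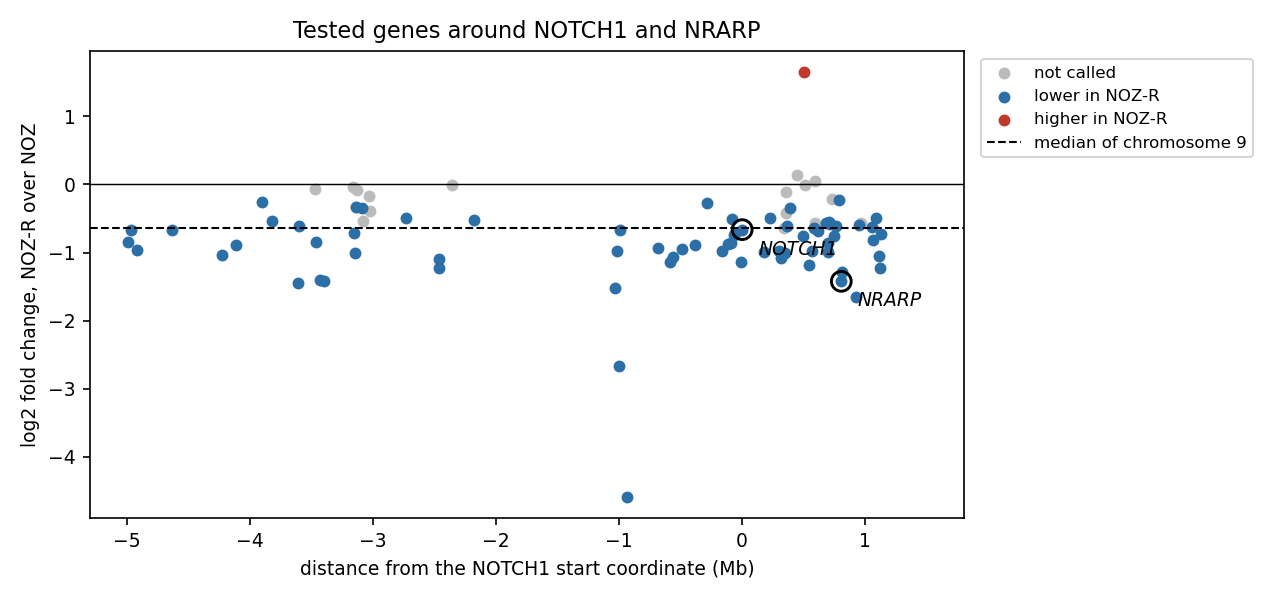
Log2 fold change (NOZ-R over NOZ) of each tested gene within 5 Mb of NOTCH1 against its distance from the NOTCH1 start coordinate in Mb, with positive distance toward the chromosome end. Circles mark NOTCH1, which sits on the dashed median of chromosome 9 (-0.64), and NRARP, which sits below it at -1.42.

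NOTCH2 also lay among genes that were mostly higher, though it exceeded their median. The 26 other tested genes within 5 Mb of it had a median log2 fold change of 0.46, with 69.2% called higher and 0 called lower, and the median of chromosome 1 was 0.17. Around JAG1 and HES1 the medians were slightly negative. Of the neighbours of JAG1, 25.0% were called higher and 37.5% lower. For HES1 these shares were 25.0% and 30.4%, against 30.4% higher and 29.8% lower of all tested genes. The 24 tested neighbours of JAG1 had a median of -0.11 and the 56 of HES1 a median of -0.13, against log2 fold changes of 0.75 and 0.51 for the members. DLL1 was below its neighbourhood on chromosome 6, where the 19 other tested genes within 5 Mb had a median of 0.27. HEY1, at 0.49, was close to the median of 0.34 of its 17 neighbours. NOTCH3 and JAG2 had neighbours with medians of -0.05 and -0.14.

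**Figure D4:**
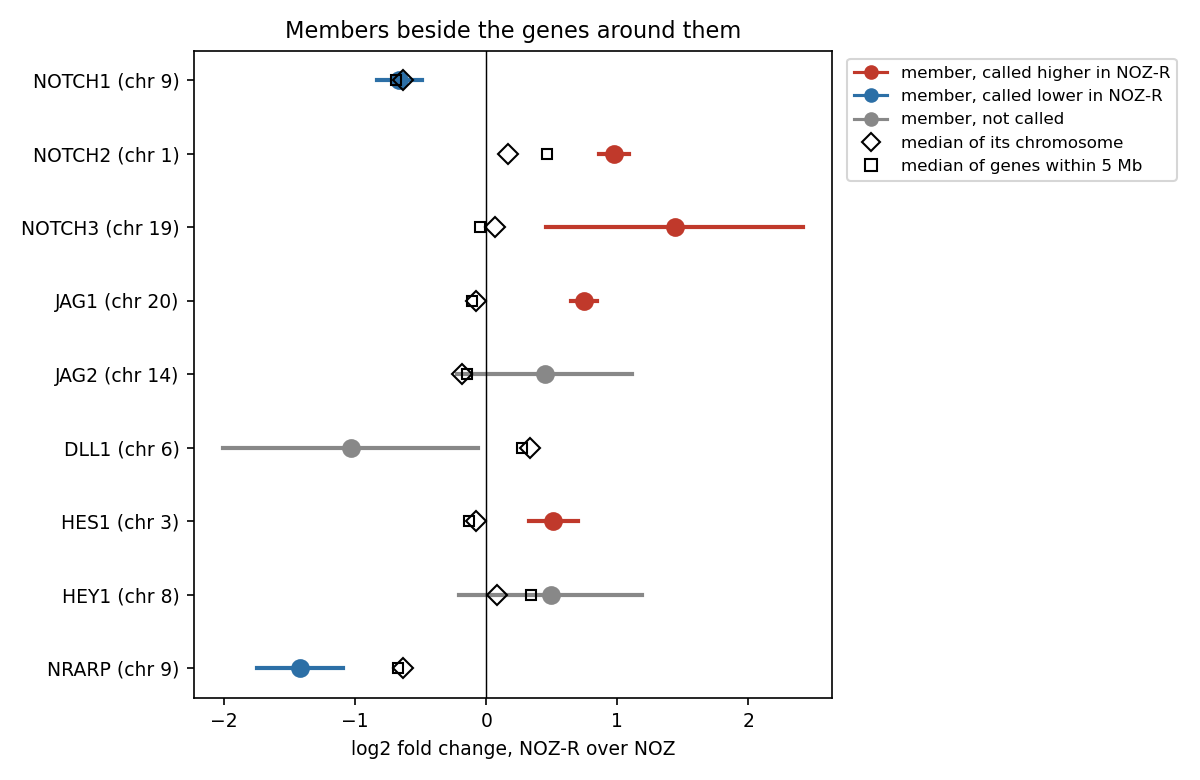
Log2 fold change (NOZ-R over NOZ) of the 9 tested members with 95% intervals, beside the median of the other tested genes on the same chromosome (diamond) and within 5 Mb (square). NOTCH1 coincides with both medians, while NRARP lies below its pair and NOTCH2, JAG1 and HES1 lie above theirs.

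Around the members, the other genes of the pathway were read from lists of receptor modification, cleavage, ligand handling, nuclear factors, turnover and targets. Of 98 such genes, leaving out the NOTCH2 copies, 78 were tested, with 34 calls up in NOZ-R, 19 down and 25 below the threshold, which is 67.9% called against 60.2% of all tested genes. Their median log2 fold change was 0.13. Counts in the single lists are likewise to be read against that background.

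The proteases that release the receptor's intracellular domain were higher or did not pass. The call was higher for 5 of 8 tested genes and lower for 0, around a median of 0.40. FURIN, the convertase that makes the first cut of the receptor in the secretory pathway, had a log2 fold change of 0.98 ± 0.0753 (SE, adjusted p = 1.05e-07, edgeR). ADAM17, a metalloprotease that can shed the receptor ectodomain, was at 0.78 and NCSTN, the gamma-secretase subunit nicastrin, at 0.69. ADAM17 and NCSTN overlap genes on the opposite strand, so their counts are uncertain.

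Genes of receptor glycosylation went both ways, with 3 higher and 5 lower of 10 tested and a median of -0.13. GXYLT2, a xylosyltransferase that extends O-glucose on EGF repeats, had 153, 107 and 105 counts in NOZ-R and 19, 13 and 10 counts in NOZ, a log2 fold change of 3.21 ± 0.214 (SE, adjusted p = 2.42e-08, edgeR). GXYLT2 shares exonic sequence with PPP4R2. POFUT1, the O-fucosyltransferase of the receptor, was at 0.40 and POGLUT1, the O-glucosyltransferase, at 0.39. POGLUT2 had a log2 fold change of -1.09, GXYLT1 of -0.46 and LFNG, the Fringe enzyme that biases receptors toward Delta-like ligands, of -0.40. With the median of its chromosome taken off, LFNG was at -0.10, GXYLT1 at -0.38 and POGLUT2 at -0.71. With the median of the genes within 5 Mb taken off instead, LFNG was at -0.62, GXYLT1 at -0.13 and POGLUT2 at -0.29.

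Genes that ubiquitinate or internalise ligands were tested in 5 of 7 cases, of which 1 was higher and 2 were lower. MIB1, the main ubiquitin ligase of NOTCH ligands, fell by 0.55 on the log2 scale and MIB2 rose by 0.88. NEURL1B, a Neuralized-type ligase, had 12, 26 and 13 counts in NOZ-R and 111, 64 and 94 counts in NOZ, a log2 fold change of -2.29 ± 0.309 (SE, adjusted p = 2.32e-05, edgeR). MIB2 and NEURL1B overlap antisense transcripts. Among 3 tested non-canonical ligands, MFAP2, a microfibril protein, fell by 0.42. Of those not tested, and named outside the rule, EGFL7 on chromosome 9 had 8 counts in NOZ-R and 62 in NOZ. CNTN6 had 17 counts in NOZ-R and 0 in NOZ.

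Of 23 tested genes of the nuclear complex and its corepressors, 11 rose and 5 fell, around a median of 0.23. The acetyltransferase genes KAT2B and CREBBP had log2 fold changes of 0.70 each and the Groucho-type corepressor TLE3 of 0.69. RBPJ itself, named outside the rule after its values were seen, had a log2 fold change of 0.52 (adjusted p = 5.00e-05, edgeR). On the lower side were L3MBTL3, a methyl-lysine reader that binds RBPJ, at -0.84, TLE1 at -0.54 and RITA1, an RBPJ export factor, at -0.48. TLE1 lies on chromosome 9, and with the chromosome median taken off its value was 0.10, or 0.0062 with that of the genes within 5 Mb. L3MBTL3 and RITA1 overlap antisense transcripts.

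Turnover genes and negative regulators were tested in 11 of 14 cases, with 4 higher and 2 lower. BEND6, a corepressor of RBPJ in neural progenitors of the mouse, had 21, 18 and 27 counts in NOZ-R and 1, 3 and 0 in NOZ, a ratio of summed counts of 17.7 with a 95% counting interval of 6.61 to 67.0. DTX3L, a Deltex-family ubiquitin ligase also known as an interferon-induced gene, had a log2 fold change of 2.16 ± 0.0564 (SE, adjusted p = 1.91e-12, edgeR), and it overlaps PARP9 on the opposite strand. AAK1, an endocytic kinase, was at 0.66. CDK8, whose product marks the intracellular domain for degradation, was at -0.30, or 0.09 with the chromosome median and 0.03 with the 5 Mb median taken off, and ITCH, a ubiquitin ligase, was at -0.18, a call lost in 9 of 19 settings.

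Of the other HES and HEY genes, HEY2, HEYL, HES3 and HES5 had 0 counts in every library. The 4 that were tested all passed, 1 higher and 3 lower. HES4 had a log2 fold change of 0.58, HES7 of -1.01, HES2 of -0.99 and HES6 of -0.67, the last a call lost in 7 of 19 settings. Among 13 tested genes reported as NOTCH targets in some tissues, 8 rose and 1 fell, around a median of 0.47. BHLHE40, a transcription factor also induced by hypoxia, was at 1.601, the cell cycle inhibitor CDKN1A at 1.59, GATA3 at 1.25 from 9 to 31 counts a library, and EPHB4, an ephrin receptor, at -0.91. BHLHE40, CDKN1A and EPHB4 overlap genes on the opposite strand, so their counts are uncertain.

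**Figure D5:**
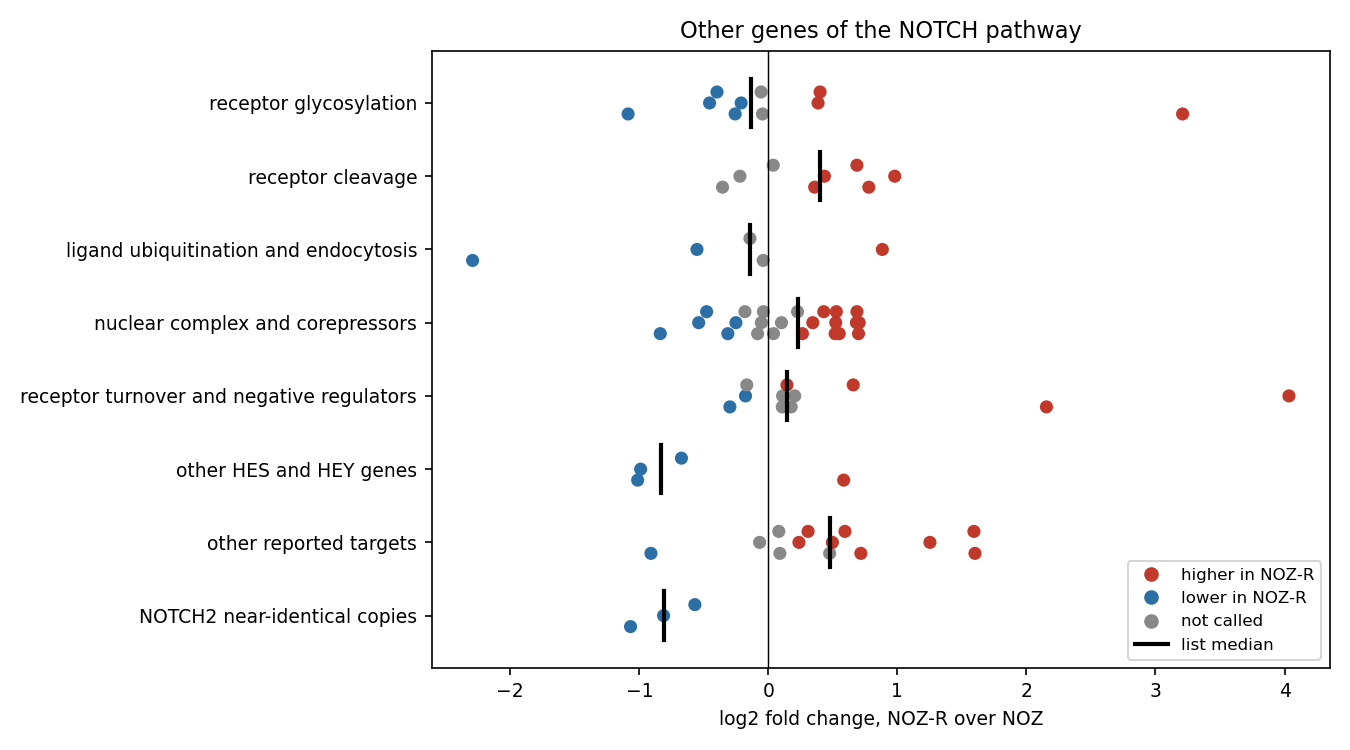
Log2 fold change (NOZ-R over NOZ) of the tested genes of each NOTCH pathway list, 1 point a gene, coloured by call, with the list median as a bar. The receptor cleavage list has points called higher and none called lower, while the 3 tested NOTCH2 copies are called lower.

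The genes most like the members in their pattern over the 6 libraries were found by the root mean square difference of log2 CPM centred on each gene's mean, among 8956 genes of at least 10 CPM. For NOTCH2 they were HYOU1, HEG1 and ECE1, with differences of 0.0244 to 0.0292. For JAG1 they were MCM6, LRP1 and RABEP2, with differences of 0.0175 to 0.0303. For NOTCH1 they were ADPRHL1, NECTIN1 and MAPKAP1, with differences of 0.0198 to 0.0264. Since the 6 libraries fall into 2 lines, these are mainly genes with a like difference between the lines.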

How the data were processed

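RNA-seq counts of 3 NOZ-R and 3 NOZ libraries were analysed, grouped by their titles. The authors deposited a table of raw counts and a table of FPKM. Per the submitters' processing notes, fastp 0.22.0 and GRCh38 were used. Aligner, counter, strand setting and gene annotation: not given in the sources used here. Each deposited FPKM value equals the count over the library total and 1 fixed gene length (largest relative spread of that length 6.78e-14), so it holds no composition correction. PCR copies were not told apart, so counting intervals cover counting error only.

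In edgeR 4.0.16 (R 4.3.3), genes were kept by filterByExpr, libraries scaled by TMM (factors 0.954 to 0.961 for NOZ-R, 1.04 to 1.05 for NOZ), and the lines tested by quasi-likelihood with Benjamini-Hochberg adjustment at 0.05. CPM use the scaled sizes. The SE is the log2 fold change over the square root of F, and 95% intervals use its t quantile. Ratios of summed counts have exact conditional binomial intervals. Positions and transcript GC come from GENCODE 29, found for 13921 of 14386 tested genes. Promoter windows are RefSeq's, GRCh38.p14. Replicates differed beyond sampling noise (mean chi-square per gene 2.18 to 11.5). The scripts were tested on simulated counts.

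Members, lists and tests were chosen with earlier results of these data known. Beside all members, NOTCH4, DLL3 and the NOTCH2 copies, up to 3 called increases and 3 called decreases per list are named. Other fits changed scaling (DESeq2 size factors, upper quartile, or totals alone), filtering (none, or 1 CPM in at least 3 libraries), tool (DESeq2 1.42.0 by its Wald test; limma 3.58.1 on log2 FPKM after adding 1 or 0.1), threshold (0.01, or a null of at most 2-fold), libraries (each left out), replicate number as a block, GC content (loess, span 0.3, also with that block), or position (minus the chromosome median). The DESeq2 Wald fit also used its own scaling and filter (19968 genes with an adjusted p), and the limma fits left out TMM. Python 3.11.15 with pandas 2.3.3, scipy 1.17.1 and matplotlib 3.10.9 was used for the rest.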

Additional observations from a re-analysis of the deposited data

How the results depend on the processing

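Of 169 member values under 19 alternative fits, 154 kept their direction and side of the threshold, 10 lost a call, 5 gained one and 0 reversed. Members called higher numbered 4, and 3 to 5 without a library; those called lower numbered 2 in the reported fit and without any library. A test against a 2-fold change left 0 members higher and 1 lower (NRARP), and 847 genes higher and 442 lower of all. Without a library, 52.7% to 60.8% of tested genes were called: 4018 to 4634 genes were higher and 3833 to 4328 lower. NOTCH3 lost its call in 6 settings, among them the DESeq2 Wald test (adjusted p = 0.0826). DLL1 gained one with library size only, log2(FPKM + 0.1) and the GC correction with and without the block (DLL1 adjusted p 0.0317 to 0.0437). Library size only moved the median of all genes by -0.129 and gave 3316 higher and 5468 lower genes. With limma on log2(FPKM + 0.1) the shift was -0.119. With the replicate block, 4324 genes were higher and 4180 lower; no member call changed. Same-numbered libraries deviated together with r of 0.0682, -0.0224 and -0.0365, so the numbers are not taken as pairs. Among the members and the pathway genes named by the rule, taking off chromosome medians reversed TLE1 (0.10) and CDK8 (0.0863). It left NOTCH1 at -0.03. CTBP2, a nuclear list gene called lower and named here outside the rule, went from -0.25 to 0.35. Within NOZ, replicate 2 stood apart in GC content (rank correlation -0.495, against 0.312 and 0.364); with the GC correction NOTCH1 was at -0.78 and HES1 at 0.41, both still called. Under about 1 CPM, for NOTCH3, DLL1 and HEY1, depth limits what can be seen.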
